A study of Mus musculus with 3 samples.

Results

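The genes described here are 33 genes of protein folding in the endoplasmic reticulum (ER) and of the unfolded protein response, chosen by gene symbol from the 32285 genes in the files. They comprise 15 folding genes (chaperones and their helpers), 9 genes of ER-associated degradation (ERAD), 4 sensors and transducers, and 5 genes of the ATF4 arm. The ER folds secreted and membrane proteins with chaperones, lectins and disulfide isomerases, and ERAD exports proteins that do not fold for destruction by the proteasome. When unfolded proteins build up, the sensors IRE1 and ATF6 raise chaperone and ERAD genes, the former by splicing Xbp1 mRNA, and the kinase PERK slows translation while favouring that of the transcription factor ATF4. Other kinases that sense a lack of amino acids or double-stranded RNA also act through ATF4, whose targets include genes of amino acid supply. In the colon, goblet cells make large amounts of mucin and carry a well-developed ER.

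The genes were measured by sc-RNAseq in mouse colon organoids, which are epithelial cultures grown from crypts, in full medium with Wnt, R-spondin, EGF and Noggin. There was 1 library of untreated organoids, 1 of organoids treated with IFN-γ for 24 h and 1 of organoids treated for 48 h. The dose was 50 ng/ml mouse IFN-γ. Live cells were obtained by sorting. The labels give no strain, age or number of animals, so the 3 libraries differ in treatment and in preparation, which cannot be told apart, and no test across samples could be made.

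A minimum of 5000 UMIs (counted transcript molecules) and 400 genes per cell and a maximum of 15% mitochondrial UMIs left 1058, 917 and 2934 cells in the untreated, 24 h and 48 h libraries. They held 49801935, 71077817 and 47243500 UMIs, with medians of 33550, 68784 and 10772 per cell and median mitochondrial shares of 4.83%, 2.12% and 6.14%. At most 4 cell barcodes were shared between any pair of libraries. All 7 epithelial markers were found in every library, with summed levels of 5518 to 8217 CPM (UMIs of a gene scaled to a fixed total per library). The 8 immune markers summed to at most 0.964 CPM and 3, 3 and 5 of them were at 0, whereas the 8 stromal markers summed to 4.12, 12.2 and 19.2 CPM. Of the 8 stromal markers 1 was counted as higher than untreated at 24 h and 1 at 48 h. The labelled epithelial identity thus held. Interferon response genes were far higher after treatment, with Irf1 at 23.5, 331 and 310 CPM, Cxcl10 at 2.55, 824 and 648 CPM and Cd74 at 0.38, 1220 and 2318 CPM. Gbp2 was at 571 and 639 CPM and Iigp1 at 1123 and 1116 CPM in the treated libraries, against 2 UMIs and 1 UMI in all untreated cells together.

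Promoter sequence was available for 28 of the 33 genes, from RefSeq on GRCm38.p6, and was not available for Manf, Hyou1, Derl1, Atf6 and Ern2. Up to 250 bases upstream of each start, and the bases of each entry past the start, were searched on both strands. The counts of genes take matches on either side of the start, and the matches shown all lie upstream of the RefSeq start. By the GENCODE gene positions given below, those of Hspa5 and Asns lie inside the gene, as the 2 annotations place the start differently. The ER stress response element, to which NF-Y and ATF6 bind, was taken as the letters CCAAT followed after 9 bases by CCACG, and it was found in 9 of the 28 genes (32.1%) against 37 of 27025 genes (0.137%) in the whole table. By role, 7 of 13 folding genes and 2 of 8 ERAD genes held it, and none of 2 sensors or 5 ATF4 genes did. The element and the genes were both chosen for their known link to ER stress, so these shares are descriptive and no test of that link. The elements of the chaperones with the most UMIs are shown to let the match be read against the values that follow, with the 5 bases at each end in capitals. They are Hspa5 at chr2:34772013-34772055 on the plus strand, Calr at chr8:84847063-84847105, Hsp90b1 at chr10:86705626-86705668 and chr10:86705521-86705563 and Canx at chr11:50325788-50325830, all on the minus strand, and Pdia6 at chr12:17266479-17266521 on the plus strand. In Calr and in the second element of Hsp90b1 the match lies on the opposite strand and reads CGTGG to ATTGG.
Hspa5: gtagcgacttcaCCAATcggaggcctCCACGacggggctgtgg
Calr: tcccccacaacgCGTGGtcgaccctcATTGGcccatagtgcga
Hsp90b1, first: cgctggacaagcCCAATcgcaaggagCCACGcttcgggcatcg
Hsp90b1, second: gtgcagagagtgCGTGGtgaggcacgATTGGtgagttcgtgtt
Canx: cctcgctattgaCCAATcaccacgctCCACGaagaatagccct
Pdia6: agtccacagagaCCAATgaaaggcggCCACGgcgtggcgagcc

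Creld2, Dnajc3, Syvn1 and Derl3 also held the element. Its smaller relative TGACGTGG was found in none of the 28 genes and in 0.714% of all genes. Of the elements to which ATF4 binds together with C/EBP factors, TGATGCAAC was found in Chac1 and Herpud1 and in 0.192% of all genes, TGATGAAAC in Asns and in 0.229% of all genes, and TGATGCAAT in none of the 28 and in 0.222% of all genes. They are shown for the ATF4 arm and for the 1 ERAD gene that shares an element with it, with the match in capitals. Chac1 lies at chr2:119351036-119351068 and Herpud1 at chr8:94386304-94386336, both on the plus strand with the match on the opposite strand, and Asns at chr6:7693212-7693244 on the minus strand. A match is a description of the letters, and none of the 3 libraries measured binding. These elements too were chosen for their known link to ATF4, so their shares are no test of it.
Chac1: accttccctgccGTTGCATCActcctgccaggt
Herpud1: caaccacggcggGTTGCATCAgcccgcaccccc
Asns: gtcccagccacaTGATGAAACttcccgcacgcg

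For the comparison of libraries, UMIs were summed over cells and scaled to CPM, and each treated library was divided by the untreated one on the log2 scale. Both ratios share the untreated library. Brackets hold exact 95% conditional binomial intervals, which cover counting error only. Over the 13572 genes with at least 100 UMIs in the 3 libraries together, the median log2 ratios of the 24 h and 48 h libraries were -0.36 and -0.13, and TMM factors, an alternative scaling, raised every ratio by 0.34 and 0.13. A gene near 0 on the CPM scale was therefore higher than most genes, and the sign of a ratio between 0 and -0.34 at 24 h, or between 0 and -0.13 at 48 h, depended on the scaling. Of the 33 genes 32 passed the minimum, and Derl3 did not.

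At 24 h, 5 of the 32 genes were at least 1.5-fold higher than in untreated cells, against 5.95% of all genes, and 2 were at least 1.5-fold lower, against 35.5%. The 5 higher genes were Trib3, Chac1, Atf4, Asns and the folding gene Creld2, and the 2 lower ones were the sensor genes Ern2 and Ern1. At 48 h, 6 genes were higher, against 8.27% of all genes, and 1 was lower, against 21.2%. The ATF4 genes Trib3, Chac1, Asns and Atf4 were again among the higher ones, now with Calr and Hspa5, and Ern2 was the lower one. At 48 h Hspa5 (0.59) lay just inside the limit and Creld2 (0.53) just outside, as did Manf (0.55) at 24 h. With TMM factors 9 genes were higher, against 15.4% of all genes, and 1 was lower, against 20.5%, at 24 h. At 48 h 7 were then higher, against 11.3%, and 1 was lower, against 17%. In cells of 10000 to 40000 UMIs, a range in which the libraries are closer in depth, the all-gene medians were -0.10 and -0.44. At 24 h 8 genes were higher there, against 8.05% of all genes, and 1 was lower, against 18%, and at 48 h 6 were higher, against 11.7%, and 6 lower, against 41.9%. Hspa5, Calr and Ddit3 were among the 8 higher genes at 24 h, and Dnajb9, Hyou1, Sel1l, Syvn1 and Ern1 were lower beside Ern2 at 48 h. The plot of ratios by gene shows Trib3 and Chac1 set apart to the right of the folding and ERAD genes. Atf4 and Asns lie nearer, close to Creld2 at 24 h and to Calr at 48 h, and Ddit3 lies among the folding and ERAD genes.

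**Figure D1:**
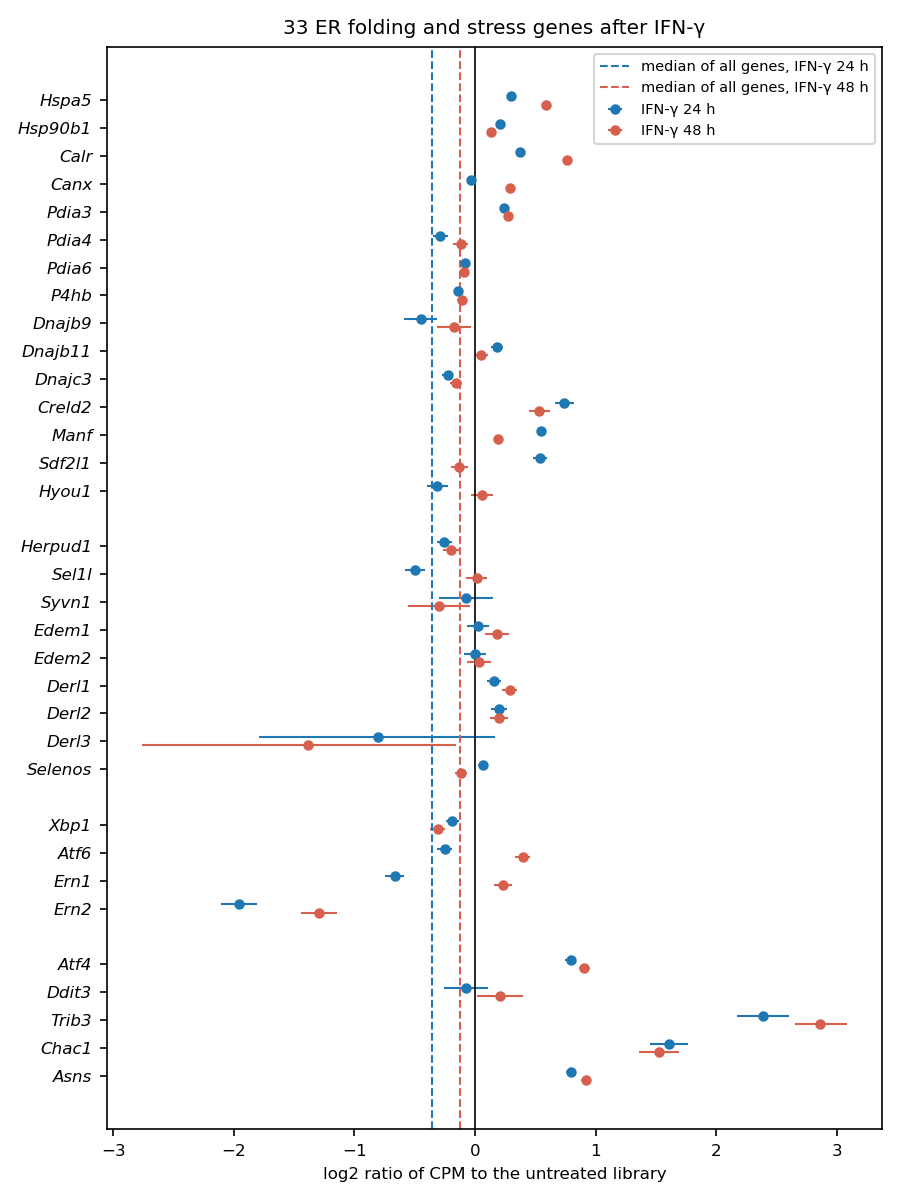
Log2 ratio of CPM in the 24 h (blue) and 48 h (red) IFN-γ library to the untreated library for each of the 33 genes, with exact 95% intervals for counting error; blocks from top to bottom are folding genes, ERAD genes, sensors and ATF4 genes, and dashed lines give the median of 13572 genes. Trib3 lies farthest to the right with 2.38 and 2.86, Ern2 farthest to the left of the genes with over 100 UMIs with -1.96 and -1.29, and Derl3 rests on 48 UMIs in all. TMM factors would move all blue points right by 0.34 and all red points by 0.13, which changes the sign of the ratios between these values and 0.

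In the ATF4 arm 4 of the 5 genes were at least 1.5-fold higher after IFN-γ at both times, against 5.95% and 8.27% of all genes. The median ratios over the 5 genes were 0.79 and 0.92. Trib3 (chr2:152337422-152344032), a pseudokinase gene that ATF4 turns on and whose protein restrains it, was at 4.08, 21.3 and 29.7 CPM in the untreated, 24 h and 48 h libraries. It rested on 203, 1513 and 1401 UMIs, and its log2 ratios were 2.38 [2.17 to 2.60] and 2.86 [2.65 to 3.08]. The treated libraries thus lay 5.22-fold and 7.28-fold above the untreated one, the largest ratios among the 33 genes. Chac1 (chr2:119351229-119354381), which encodes an enzyme that degrades glutathione, was at 8.19, 25.01 and 23.6 CPM, with log2 ratios of 1.61 [1.45 to 1.77] and 1.53 [1.36 to 1.69].

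Atf4 itself (chr15:80255184-80257541) was at 113, 196 and 212 CPM, with log2 ratios of 0.79 [0.75 to 0.84] and 0.91 [0.86 to 0.95]. Asns (chr6:7675169-7693254), the asparagine synthetase gene, followed closely at 127, 220 and 241 CPM, with ratios of 0.79 [0.75 to 0.84] and 0.92 [0.88 to 0.97]. These 4 genes were higher in both treated libraries under all 12 alternative settings tried for the libraries. Not all of these could turn the sign. Other minima of counts per gene leave a gene's ratio as it is, and TMM factors could only raise these ratios. Ddit3, which encodes the pro-apoptotic factor CHOP, was at 8.49, 8.08 and 9.80 CPM, with ratios of -0.07 [-0.26 to 0.11] and 0.21 [0.01 to 0.40]. The former is 0.26 with TMM factors. Within cells of 10000 to 40000 UMIs Ddit3 was higher at 24 h, with 0.62 [0.09 to 1.14], and at 48 h had 0.30 [-0.08 to 0.70], so its direction at 24 h rests on the depth of the cells compared. The files list Ddit3 under 2 overlapping gene IDs on chr10, of which the second had no UMI in any library, so its level is uncertain where reads fit both. The bars of CPM by library show 4 genes higher in both treated libraries and Ddit3 level on the scale of whole libraries.

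**Figure D2:**
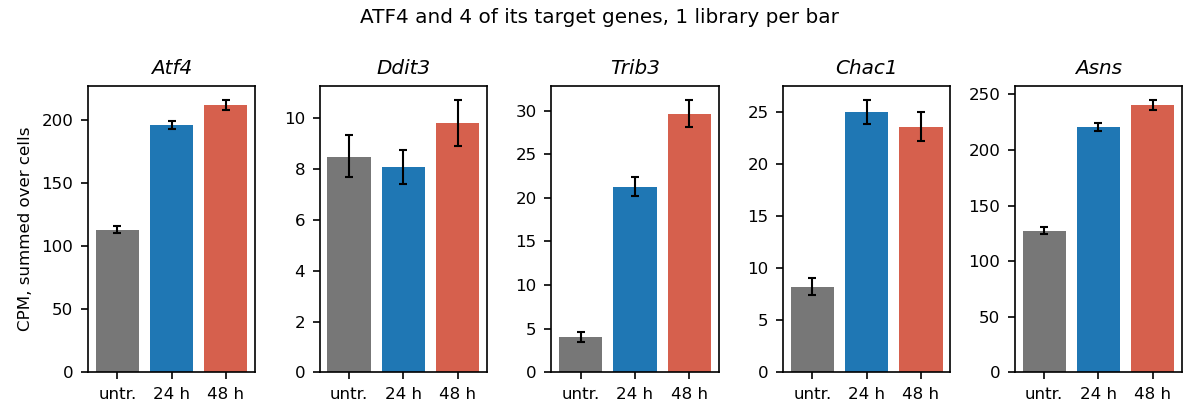
CPM of ATF4 and 4 of its target genes in the untreated (grey), 24 h (blue) and 48 h (red) libraries, 1 bar per library and a separate linear axis from 0 for each gene; error bars are exact 95% Poisson intervals for counting error. Trib3, Chac1, Atf4 and Asns are higher in both treated libraries, under CPM and TMM scaling alike, whereas Ddit3 lies between 8.08 and 9.80 CPM, its 24 h library lower by CPM and higher with TMM factors or in cells of like depth.

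Depth per cell differed between the libraries, so levels were also read within ranges of UMIs per cell. In 4 ranges, from 5000 to 10000, to 20000, to 40000 and above, untreated cells held Trib3 at 4.02 to 4.47 CPM. The 24 h cells held it at 20.4 to 45.0 CPM, and the 48 h cells at 27.9 to 31.0 CPM. The ranges of the treated and untreated cells did not overlap. Chac1 was at 1.93 to 9.17 CPM in untreated cells. In the 24 h and 48 h cells it was at 16.2 to 49.2 and 12.9 to 32.1 CPM, likewise without overlap. Over all ranges together the untreated values rest on 203 UMIs of Trib3 and 408 UMIs of Chac1. The ranges are parts of the same libraries and not replicates. How many of all genes show no overlap was not tested, so the lack of overlap is descriptive. Barcodes with fewer than 2000 UMIs, which hold free RNA and debris, carried Trib3 at 6.88, 20.8 and 23.5 CPM, so the difference was also present in the background. The part of free RNA in the cells' values was not tested.

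A list of 30 further genes, all of which passed the minimum, held ATF4 targets and also kinase genes upstream of ATF4. Of the 30 genes 13 were at least 1.5-fold higher and 1 lower at 24 h, against 5.95% and 35.5% of all genes. At 48 h 17 were higher and 1 lower, against 8.27% and 21.2%. The higher genes at both times include the upstream kinase gene Eif2ak2 (0.63 and 0.87), so the counts are not of ATF4 targets alone. The list was chosen with earlier results of these data known, so its counts are descriptive and no test of the ATF4 arm. The median ratios of the 30 genes were 0.44 and 0.91. The highest were Wars, a tryptophanyl-tRNA synthetase gene that IFN-γ also induces, at 84.6, 526 and 632 CPM, Mthfd2 of mitochondrial folate metabolism at 66.5, 149 and 173 CPM, and Psph of serine synthesis at 52.4, 114 and 122 CPM. At 48 h Slc7a11, the cystine transporter gene, at 21.8, 33.6 and 80.6 CPM and Gpt2, an alanine transaminase gene, at 5.20, 9.54 and 18.4 CPM ranked next to Wars. At the low end Atf3, a stress transcription factor gene, was at 119, 72.6 and 73.8 CPM, with log2 ratios of -0.72 and -0.69. Vldlr (-0.51) and the amino acid sensing kinase gene Eif2ak4 (-0.49) were next at 24 h, and Cebpb (-0.35) and Ddit4 (-0.28) at 48 h.

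The folding genes changed less. Their summed level was 3885, 4486 and 4817 CPM, with ratios to untreated of 0.21 [0.20 to 0.22] and 0.31 [0.30 to 0.32], and the median over the 15 genes was 0.18 and 0.06. Relative to the median of all genes these medians were 0.54 and 0.19, and 14 of 15 genes at 24 h and 12 of 15 at 48 h lay above the all-gene median. At 24 h 8 of the 15 ratios were above 0, beside an all-gene median of -0.36. At that time 1 gene was at least 1.5-fold higher, against 5.95% of all genes, or 5 with TMM factors, against 15.4%.

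Among the major chaperones, Hspa5 (chr2:34771970-34777547), which encodes the Hsp70 chaperone BiP and keeps the sensors inactive, was at 603, 743 and 906 CPM, with ratios of 0.30 [0.28 to 0.32] and 0.59 [0.57 to 0.61]. Within cells of 10000 to 40000 UMIs the order of the times was the reverse, at 0.65 and 0.20. Hsp90b1, the ER Hsp90, was at 633, 731 and 694 CPM (0.21 and 0.13), and Hyou1, which exchanges nucleotide on BiP, at 39.98, 32.2 and 41.7 CPM (-0.31 and 0.06, the former 0.02 with TMM factors). Hyou1 at 48 h was at -0.75 [-0.90 to -0.60] in cells of 10000 to 40000 UMIs. Hspa5 and Hsp90b1 were thus higher in both treated libraries under both scalings, and Hyou1 was not on the CPM scale.

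The lectin chaperones hold glycoproteins, among them MHC class I heavy chains, and calreticulin and the isomerase encoded by Pdia3 are parts of the class I peptide-loading complex. Calr (chr8:84841850-84846934) was at 600, 778 and 1017 CPM, with ratios of 0.37 [0.35 to 0.39] and 0.76 [0.74 to 0.78], the largest at 48 h among the folding genes. In every range of depth Calr was higher in both treated libraries, with 366 to 631 CPM in untreated, 537 to 797 CPM in 24 h and 952 to 1085 CPM in 48 h cells. Its partner Canx was at 283, 276 and 346 CPM (-0.04, or 0.30 with TMM factors, and 0.29) and Pdia3 at 450, 532 and 544 CPM (0.24 and 0.27). The dedicated loading genes beside them were far higher after IFN-γ, Tapbp at 27.0, 134 and 212 CPM, Tap1 at 5.30, 183 and 242 CPM and Tap2 at 2.01, 14.0 and 16.9 CPM. The trimming peptidase gene Erap1 was at 30.6, 57.3 and 81.2 CPM, and B2m, H2-K1 and H2-D1 had log2 ratios of 1.34 to 3.06.

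The other disulfide isomerases differed little. Pdia4 was at 84.2, 69.1 and 77.5 CPM, Pdia6 at 274, 259 and 257 CPM, and P4hb at 251, 228 and 232 CPM. Their log2 ratios were -0.29 to -0.08, all below 0 by CPM and between 0.01 and 0.25 with TMM factors. Of the J-domain cochaperones of BiP, Dnajb9 was at 17.5, 12.8 and 15.5 CPM (-0.45 and -0.18), Dnajb11 at 117, 133 and 121 CPM (0.18 and 0.05) and Dnajc3 at 152, 130 and 136 CPM (-0.23 and -0.16, the former 0.11 with TMM factors). Dnajb9, an Xbp1 target, was the folding gene with the lowest ratio at 24 h and stayed below 0 with TMM factors at both times, with -0.86 [-1.10 to -0.61] at 48 h in cells of 10000 to 40000 UMIs.

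Over whole libraries the small secreted and luminal stress genes had their highest values at 24 h. Creld2, a gene of an ER protein that is induced with BiP, was at 35.7, 59.6 and 51.7 CPM, with ratios of 0.74 [0.66 to 0.82] and 0.53 [0.44 to 0.62]. Manf, which encodes a secreted protein that binds BiP, was at 273, 400 and 311 CPM, with ratios of 0.55 [0.52 to 0.58] and 0.19 [0.15 to 0.22]. Sdf2l1, a partner of Dnajb11, was at 71.8, 104 and 65.6 CPM, with ratios of 0.54 [0.48 to 0.59] and -0.13 [-0.20 to -0.06]. Sdf2l1 was thus higher in the 24 h library only, and its 48 h ratio of -0.00 with TMM factors lay at 0. In the cells closer in depth, used above for Hspa5, the ratios at 24 h and 48 h were 0.83 and 0.87 for Creld2. They were 0.41 and 0.36 for Manf and 0.50 and 0.04 for Sdf2l1. The 48 h to 24 h ratios there were 0.04 [-0.17 to 0.25], -0.05 [-0.13 to 0.03] and -0.46 [-0.62 to -0.30], beside an all-gene median of -0.31. At like depth the higher value at 24 h thus remained for Sdf2l1 alone.

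Among 38 further folding genes, 1 was at least 1.5-fold higher and 5 lower at 24 h, and 3 higher and 3 lower at 48 h, with medians of -0.10 and -0.09. The shares over all genes were 5.95% and 35.5% at 24 h and 8.27% and 21.2% at 48 h. Fkbp11, a prolyl isomerase gene, was the highest at 24 h with 53.4, 96.2 and 100.6 CPM, followed by Fkbp2 (0.47) and the signal peptidase gene Spcs1 (0.45). At 48 h Uggt1, the glucosyltransferase that returns unfolded glycoproteins to calreticulin and calnexin, was the highest at 77.8, 93.6 and 152 CPM, with Sec61a1 of the translocon behind Fkbp11 at 91.8, 84.0 and 139 CPM. The lowest were Fkbp14 at 2.15, 0.62 and 0.70 CPM and Agr2, the disulfide isomerase of goblet cells, at 1570, 525 and 370 CPM. Agr2 made up 1570 of the list's 6511 CPM in untreated cells, and Pdia5 (-0.93 at 24 h) and Kdelr3 (-0.98 at 48 h) came next. In the untreated library Agr2, Pdia5 and Kdelr3 were higher in the goblet-like cells defined below than in other cells, with log2 ratios of 5.33, 2.84 and 3.78. Within the other cells the ratios to untreated at 24 h and 48 h were 0.35 and 0.19 for Kdelr3 and -0.36 and 0.24 for Pdia5. Agr2 was at -0.34 and -0.28 there, and Fkbp14 at -1.75 and -1.48.

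The ERAD genes as a group were level over whole libraries. Their sum was 474, 473 and 483 CPM, the median ratio of the 8 genes that passed the minimum was 0.01 and 0.02, and none passed 1.5-fold at either time, with CPM or TMM scaling. Relative to the median of all genes these medians were 0.37 and 0.15. By CPM 5.95% of all genes were at least 1.5-fold higher and 35.5% lower at 24 h, and 8.27% and 21.2% at 48 h. In cells of 10000 to 40000 UMIs Sel1l and Syvn1 were at least 1.5-fold lower at 48 h, against 41.9% of all genes. The mannosidase-like genes Edem1, at 32.5, 33.1 and 36.9 CPM, and Edem2, at 34.4, 34.3 and 35.2 CPM, differed by at most 0.18 on the log2 scale. The derlin genes, whose proteins form part of the export channel, were at 78.0, 86.9 and 95.3 CPM for Derl1 and at 56.9, 65.3 and 65.4 CPM for Derl2.

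Sel1l, the scaffold of the HRD1 ubiquitin ligase, was at 46.0, 32.6 and 46.5 CPM, with ratios of -0.50 [-0.58 to -0.42] and 0.01 [-0.07 to 0.10]. The ligase gene itself, Syvn1, was low at 5.84, 5.54 and 4.76 CPM. In cells of 10000 to 40000 UMIs the 48 h ratios were -0.83 [-0.97 to -0.69] for Sel1l and -0.86 [-1.30 to -0.42] for Syvn1, beside the all-gene median of -0.44 there. Herpud1, which encodes a membrane partner of the ligase, was at 73.2, 61.4 and 63.7 CPM, and Selenos at 146, 153 and 135 CPM. Derl3, the derlin of secretory cells, had 22, 18 and 8 UMIs, too few for a direction at 24 h, where its interval ran from -1.79 to 0.16.

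Of 17 further ERAD genes, 4 were at least 1.5-fold lower and none higher at 24 h, and 1 was lower and 2 higher at 48 h, against shares over all genes of 35.5% lower and 5.95% higher at 24 h and 21.2% lower and 8.27% higher at 48 h. Aup1, which recruits a ubiquitin-conjugating enzyme, was the highest at both times with 70.1, 100.9 and 118 CPM. Ube2j2 (0.25) and Vcp (0.00), the ATPase that pulls substrates out, followed at 24 h, and Nploc4 (0.62) and Rnf139 (0.29) at 48 h. The lowest at 24 h were Edem3 (-0.93), March6 (-0.78) and the lectin gene Erlec1 (-0.68), and at 48 h Erlec1 (-0.62), Edem3 (-0.40) and Fam8a1 (-0.38).

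The sensor genes held the lowest ratios. Ern2 (chr7:122169893-122186207), which encodes the IRE1 form of mucus-producing epithelia, was at 26.7, 6.88 and 10.9 CPM on 1330, 489 and 516 UMIs, with ratios of -1.96 [-2.11 to -1.81] and -1.29 [-1.44 to -1.14]. It was lower in both treated libraries in every range of depth, at 23.5 to 47.1 CPM in untreated cells against 6.60 to 15.5 CPM in treated ones. Ern1, the IRE1 of all cells, was at 55.3, 34.9 and 64.8 CPM, with ratios of -0.67 [-0.74 to -0.59] and 0.23 [0.15 to 0.30], and Atf6 at 74.1, 62.2 and 97.5 CPM, with -0.25 [-0.32 to -0.19], or 0.08 with TMM factors, and 0.40 [0.33 to 0.46]. Both 48 h ratios, and the 24 h ratio of Atf6, changed sign with depth. In cells of 10000 to 40000 UMIs Ern1 was at -0.17 at 24 h and -0.85 at 48 h, and Atf6 at 0.39 [0.25 to 0.53] and -0.37 [-0.48 to -0.26]. The all-gene medians there were -0.10 and -0.44, so Atf6 lay above and Ern1 below the median of all genes at both times. Xbp1 was at 98.5, 86.3 and 79.4 CPM, with ratios of -0.19, or 0.15 with TMM factors, and -0.31. The counts give total Xbp1 mRNA and do not separate its spliced form.

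Of 10 further sensor genes 9 passed the minimum, and 1 was at least 1.5-fold higher and 5 lower at 24 h, and 1 higher and 3 lower at 48 h. Over all genes 5.95% were higher and 35.5% lower at 24 h, and 8.27% higher and 21.2% lower at 48 h. The lowest were the membrane-bound factors Creb3l1 at 37.8, 7.19 and 6.92 CPM, Creb3l4 at 10.0, 2.08 and 2.27 CPM and Creb3l2 at 29.4, 7.33 and 14.0 CPM. The higher one was their relative Creb3 at 18.0, 37.7 and 46.3 CPM, followed by Atf6b (0.23 and 0.35), then Bhlha15 (-0.39) at 24 h and the site-2 protease gene Mbtps2 (0.32) at 48 h. Creb3l1 and Creb3l4 were higher in untreated goblet-like cells, defined below, than in other cells, with log2 ratios of 4.99 and 3.88. Within the other cells the ratios to untreated were -1.82 and -0.98 for Creb3l1, -1.85 and -1.31 for Creb3l4 and -1.93 and -1.01 for Creb3l2.

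Between the treated libraries, 3 of 32 genes were at least 1.5-fold higher at 48 h than at 24 h, against 25.2% of all genes, and 1 was lower, against 4.67%. The higher ones were Ern1 (0.89), Ern2 (0.67) and Atf6 (0.65), and the lower one was Sdf2l1 (-0.67). The median of all genes was 0.22 in this comparison, and with TMM factors 1 gene was higher, against 13.7% of all genes, and 1 lower, against 10.7%. The 48 h cells were much shallower than the 24 h cells, and the order of the times turned for Ern1 and Atf6 at like depth. In cells of 10000 to 20000 UMIs Atf6 was at 165 CPM at 24 h and 108 CPM at 48 h, and Ern1 at 111 and 77.4 CPM. In cells of 20000 to 40000 UMIs Atf6 was at 146 and 81.7 CPM and Ern1 at 84.7 and 49.95 CPM. Over both ranges together 1 of the 32 genes, Chac1 (0.73), was higher at 48 h than at 24 h, against 6.15% of all genes. Lower were 4, Syvn1 (-1.05), Atf6 (-0.76), Hyou1 (-0.71) and Ern1 (-0.68), against 26.4%.

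Goblet-like cells were set beside the other cells of the same library. They were defined by Muc2, Spink4 and Tff3, none of which is among the 33 genes, with at least 20 UMIs per 10000 in sum and at least 2 of the 3 genes detected. This gave 99 untreated cells (9.36%, exact 95% interval 7.67 to 11.3%), 48 cells at 24 h (5.23%, 3.88 to 6.88%) and 73 cells at 48 h (2.49%, 1.96 to 3.12%). The score is a range, with 45, 32 and 109 cells lying between 10 and 40 per 10000. All of 8 further goblet markers, Fcgbp, Clca1, Zg16, Agr2, Atoh1, Spdef, Ccl6 and Reg4, were at least 1.5-fold higher in these cells in every library. Goblet-like cells were deeper than other cells, with medians of 52368 against 30370 UMIs in untreated, 73104 against 68096 at 24 h and 19468 against 10466 at 48 h. Their 3 score genes summed to 8965, 6562 and 4846 CPM, so the shares depend on the level of these genes per cell and are not compared between libraries.

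In the untreated library 22 of 32 genes were at least 1.5-fold higher in goblet-like than in other cells, against 10.6% of all genes, and 1, Trib3, was lower, against 15.4%. At 24 h 11 genes were higher, against 8.23%, and 1 was lower, again Trib3, against 16.8%. At 48 h 8 were higher, against 9.77%, and none was lower, against 15.4%. The 15 folding genes had median log2 ratios of goblet-like to other cells of 1.19, 0.52 and 0.42 in the untreated, 24 h and 48 h libraries. The same medians over all genes were -0.10, -0.13 and -0.07. The difference in folding genes was thus smaller in both treated libraries, with 1 library for each condition. The 8 further goblet markers summed to 13024, 7180 and 5235 CPM in goblet-like cells, so these cells were not alike across libraries. Whether that bears on the smaller difference was not tested.

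Summed over the folding genes, goblet-like cells were at 7553, 6187 and 6392 CPM and other cells at 3360, 4393 and 4763 CPM. On the CPM scale the level in goblet-like cells was lower after IFN-γ, with ratios to untreated of -0.29 and -0.24, while that in other cells was higher, with 0.39 and 0.50. With the TMM factors of the whole libraries the goblet-like ratios were 0.05 and -0.12 and the others 0.72 and 0.63. No factors were computed within goblet-like or other cells. The direction in goblet-like cells at 24 h thus depended on which of these scalings was used. On the log2 scale the ratios of these sums were 1.17 [1.15 to 1.18], 0.49 [0.48 to 0.51] and 0.42 [0.40 to 0.45]. The ERAD genes followed with 867, 660 and 650 CPM in goblet-like cells and 417, 462 and 477 CPM in others. The ATF4 genes were higher after IFN-γ in both, at 302, 468 and 626 CPM in goblet-like cells and 255, 471 and 512 CPM in others. The plot of sums by library shows the lines of goblet-like and other cells closing for folding and ERAD genes. For ATF4 genes both lines rise, meet at 24 h and lie apart in the untreated and 48 h libraries, with goblet-like cells higher.

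**Figure D3:**
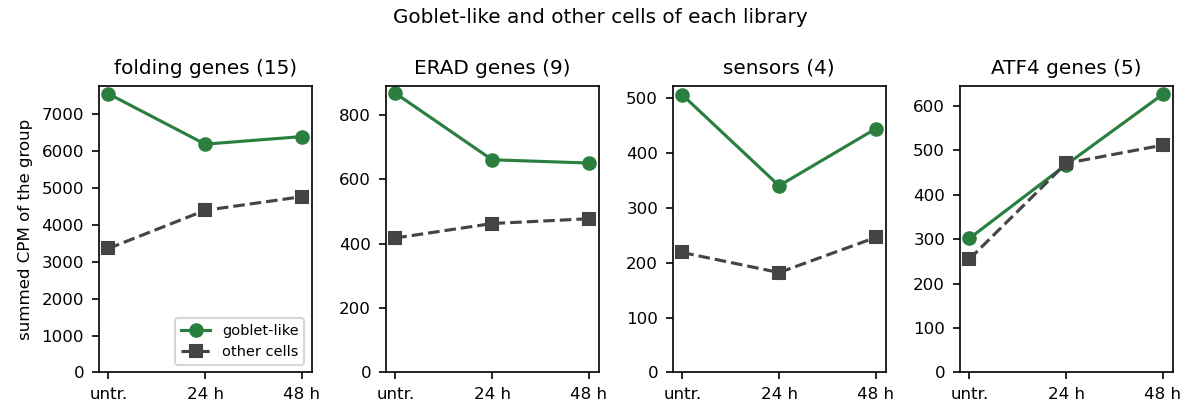
Summed CPM of each gene group in goblet-like cells (green circles) and other cells (grey squares) of the untreated, 24 h and 48 h libraries, on linear axes from 0, with the number of genes in brackets and 1 library per point. Folding genes start at 7553 against 3360 CPM and end at 6392 against 4763 CPM, and ATF4 genes end at 626 against 512 CPM.

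By gene, Pdia3 was at 980, 730 and 719 CPM in goblet-like cells and at 374, 521 and 538 CPM in others, so its ratio to untreated at 24 h was -0.42 in the former and 0.48 in the latter. Pdia6 was at 617, 398 and 358 CPM in goblet-like cells and at 225, 251 and 253 CPM in others. Hspa5 was at 1194, 1004 and 1180 CPM in goblet-like cells and at 518, 729 and 897 CPM in others. The ratio of Hspa5 to untreated in goblet-like cells at 24 h was -0.25, or 0.09 with the TMM factors of the whole libraries, and at 48 h -0.02, or 0.11. Canx was the folding gene with the smallest difference, at 313 against 278 CPM in the untreated library (0.17 [0.10 to 0.24]).

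Herpud1 had the largest difference of the ERAD genes with over 100 UMIs, at 184 against 57.3 CPM in untreated, 115 against 58.4 CPM at 24 h and 115 against 62.0 CPM at 48 h. Ern2 was the most goblet-like of all 33 genes, at 121 against 13.2 CPM (3.20 [3.04 to 3.36]), 57.4 against 4.11 CPM (3.80 [3.54 to 4.07]) and 89.8 against 8.25 CPM (3.44 [3.15 to 3.73]). Unlike the folding genes, it kept its difference in the treated libraries. Its level was lower after IFN-γ within goblet-like cells, with ratios of -1.08 and -0.43, and within other cells, with -1.68 and -0.68. Free RNA can bring UMIs of Ern2 into other cells, and the background barcodes held it at 8.94, 1.83 and 3.09 CPM. Xbp1 was at 196 against 84.5 CPM, 166 against 81.9 CPM and 134 against 77.5 CPM.

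**Figure D4:**
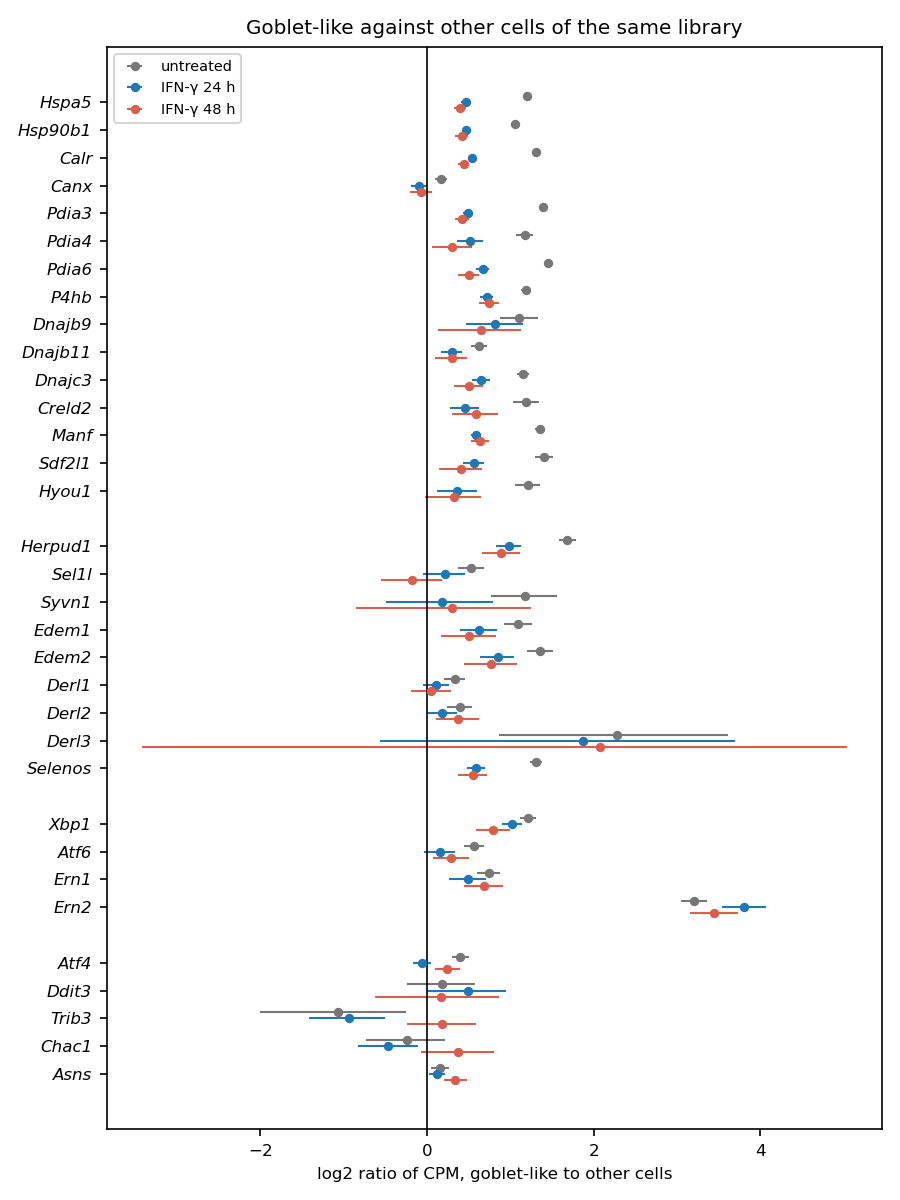
Log2 ratio of CPM in goblet-like to other cells of the same library for each of the 33 genes, untreated (grey), 24 h (blue) and 48 h (red), with exact 95% intervals for counting error. Folding genes lie between 0.17 and 1.45 in the untreated library and closer to 0 in the treated ones, Ern2 lies above 3 in all, and the long bars of Derl3 rest on 9, 3 and 1 UMIs in goblet-like cells.

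Trib3 was the gene lower in goblet-like cells, at 2.09 against 4.36 CPM in untreated on 13 UMIs (-1.06 [-2.00 to -0.26]) and at 11.4 against 21.8 CPM at 24 h (-0.94 [-1.42 to -0.50]), and it was level at 48 h with 33.6 against 29.5 CPM (0.19 [-0.24 to 0.59]). With the mean over cells of CPM no gene was at least 1.5-fold lower in the untreated goblet-like cells. Without goblet-like cells the folding genes' median ratio to untreated was 0.26 at 24 h and 0.27 at 48 h, against 0.18 and 0.06 with them.

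The spread over single cells was read after thinning every cell to 5000 UMIs. Folding genes together gave a median of 17 UMIs per cell (quartiles 12 and 23) in untreated cells, 23 (18 and 28) at 24 h and 24 (19 and 30) at 48 h. At the low end 10% of cells had at most 8, 14 and 15 UMIs, and at the high end 10% had at least 32, 36 and 36. In UMIs, treated and untreated cells thus differed more at the low than at the high end. The ATF4 genes gave medians of 1 (0 and 2), 2 (1 and 3) and 2 (1 and 3) UMIs per cell and means of 1.11, 2.32 and 2.43. The 10% of cells with most of them held 35.9%, 27.6% and 25.3% of the ATF4 group's UMIs, a share that also drops as counts become less sparse. In the cumulative plots the treated curves of ATF4 genes lie to the right of the untreated one. Those of folding genes do so over most of their length and then cross it, since 3.40% of untreated cells held 50 or more of these UMIs against 1.74% at 24 h and 1.5% at 48 h.

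**Figure D5:**
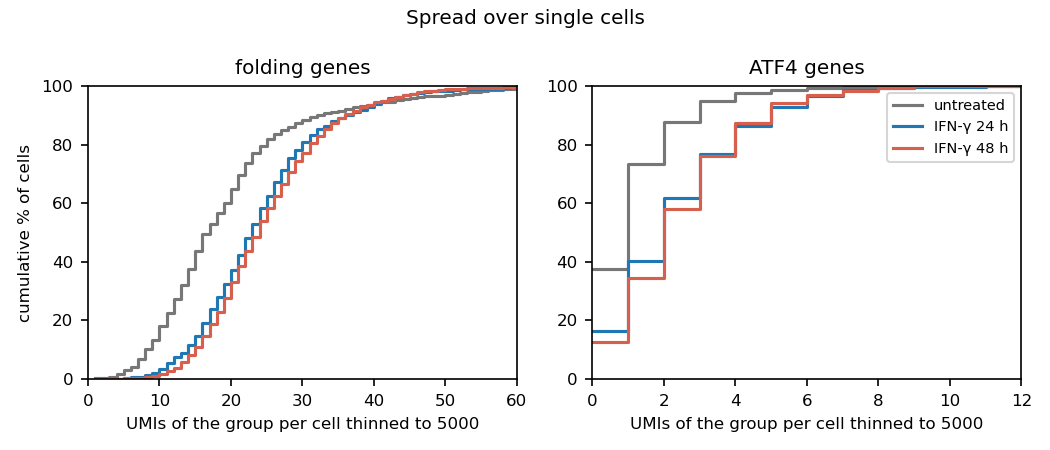
Cumulative percent of cells (vertical) against the UMIs of folding genes (left, axis ends at 60) and ATF4 genes (right, axis ends at 12) in each cell thinned to 5000 UMIs, for 1058 untreated cells (grey), 917 cells at 24 h (blue) and 2934 cells at 48 h (red). Medians are 17, 23 and 24 UMIs for folding genes and 1, 2 and 2 UMIs for ATF4 genes, and the folding gene curves cross at their upper end, with 3.40%, 1.74% and 1.5% of cells at 50 or more UMIs.

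Other features of the cells moved with treatment beside these genes. Cells with at least 10 UMIs per 10000 from 10 proliferation genes made up 65.9%, 85.9% and 82.0% of the libraries. The same 10 genes summed to 2114, 2338 and 2004 CPM, with 9 of them higher than untreated at 24 h and 4 at 48 h, so the share did not follow the summed level. The 8 colonocyte markers summed to 1177, 150 and 105 CPM. Among cells past this score the ATF4 genes' median ratio was 0.70 at 24 h and 0.84 at 48 h, and among the remaining cells 0.92 and 1.07. The 12 dissociation stress genes summed to 1776, 1955 and 1531 CPM, with 3 of them higher than untreated at 24 h and 2 at 48 h.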

How the data were processed

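Single cells of mouse colon organoids were captured with 3' v3 chemistry (10x Genomics). Reads were aligned by the authors to mm10 (Cell Ranger 6.0.1, per the labels). For each of the 3 libraries they deposited raw UMI counts by gene and barcode, not normalized and with background barcodes included. The annotation release is not given in the sources used here.

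Cells were filtered as in the study's methods, at 5000 UMIs, 400 genes and 15% mitochondrial UMIs. This filter sets how many shallow cells enter, above all at 48 h, and neither doublets nor free RNA were removed, steps that the methods do not name. Counts were summed per library and scaled to CPM. Ratios have exact conditional binomial intervals at 95%, which cover counting error only. Printed ratios use the counts as they are. For counts of genes past a fold, a count of 0 was set to a floor of 3, and a gene with both counts at or under the floor was not counted. With 1 library per condition no test was made and no p-value is given, and a limit of 1.5-fold served for counts of genes. Genes needed 100 UMIs over the libraries. TMM factors came from edgeR 4.0.16 in R 4.3.3, and the rest from Python 3.11.15 with numpy 2.4.6, scipy 1.17.1 and pandas 2.3.3. The calculation was tested on simulated data.

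All 33 genes are named, and of each further pathway list the 3 highest and 3 lowest at each time, with Eif2ak2 besides. The members and lists were chosen with earlier results of these data known, so their counts beside all genes are descriptive. Gene positions are from GENCODE vM21 on GRCm38 and promoters from RefSeq on GRCm38.p6. Protein sequences were not analysed here, and 1 gene of the interferon list is not reported here. The alternatives were other minima of UMIs and of counts per gene, a mitochondrial limit of 10%, TMM factors, the mean over cells of CPM, cells of 10000 to 40000 UMIs, the deepest 5% of cells or goblet-like cells left out, and other goblet cuts. The split by the proliferation score and a minimum of 1000 UMIs for goblet ratios were chosen after seeing the data.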

Additional observations from a re-analysis of the deposited data

Results flagged for a closer look

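Ratios to the untreated library had opposite signs in goblet-like and other cells for several genes. They did so by CPM and with the TMM factors of the whole libraries alike. Listed are only the genes whose CPM interval also kept to 1 sign in each kind of cell. At 24 h these were Pdia3 (-0.42 in goblet-like against 0.48 in other cells), Pdia6 (-0.63 against 0.16) and Selenos (-0.45 against 0.27). At 48 h the disulfide isomerase genes were Pdia3 (-0.45 against 0.52), Pdia4 (-0.79 against 0.08), Pdia6 (-0.78 against 0.17) and P4hb (-0.37 against 0.07). The other folding genes at 48 h were Hsp90b1 (-0.34 against 0.30), Manf (-0.30 against 0.42), Sdf2l1 (-0.88 against 0.13) and Hyou1 (-0.62 against 0.27). The ERAD genes at 48 h were Herpud1 (-0.68 against 0.11), Sel1l (-0.61 against 0.10), Edem2 (-0.33 against 0.26) and Selenos (-0.66 against 0.11). With 1 library per condition these differences were not tested, and goblet-like cells differed between libraries in their level of goblet markers.

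Between the times, 2 genes had opposite signs under both scalings with CPM intervals that exclude 0, also untested. Sdf2l1 was -0.13 at 48 h, or -0.004 with TMM factors, against 0.54 at 24 h. In cells of 10000 to 40000 UMIs it was 0.04 [-0.10 to 0.18] at 48 h. Ern1 was 0.23 at 48 h against -0.67 at 24 h, with -0.85 at 48 h in cells of 10000 to 40000 UMIs.

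Barcodes with fewer than 2000 UMIs, which no comparison used, held ATF4 genes above their level in the untreated library's barcodes. Trib3 was at 20.8 CPM at 24 h and 23.5 CPM at 48 h against 6.88 CPM, and Chac1 at 16.2 and 17.3 CPM against 8.53 CPM. At 48 h Atf4 was at 237 CPM against 140 CPM and Asns at 273 CPM against 137 CPM.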

How the results depend on the processing

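No paired analysis was possible because each condition has 1 library. Depth per cell, which differed between the libraries, and the scaling set the limits on small ratios. The ATF4 genes' median stayed above 0 under every alternative, of which TMM factors could only raise it. For each changed value the cause was not tested unless stated.

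With TMM factors the counts at 24 h were 9 higher and 1 lower, 1 gene was higher at 48 h than at 24 h, and the medians at 24 h and 48 h were 0.52 and 0.19 (folding), 0.35 and 0.15 (ERAD), -0.12 and 0.085 (sensors) and 1.13 and 1.05 (ATF4). In cells of 10000 to 40000 UMIs, 8 genes were higher and 1 lower at 24 h, 6 lower at 48 h, and 1 higher and 4 lower at 48 h than at 24 h. The medians there were 0.37 (folding, 24 h), -0.21 (ERAD, 48 h), -0.19 and -0.61 (sensors) and 1.003 and 1.46 (ATF4). With the mean over cells of CPM they were 0.32 and 0.20 (folding), -0.37 and -0.21 (sensors) and 0.93 and 1.06 (ATF4), and 0 genes were higher at 48 h than at 24 h. Without goblet-like cells they were 0.26 and 0.27 (folding), 0.19 and 0.18 (ERAD), -0.38 and 0.10 (sensors) and, at 24 h, 0.85 (ATF4), with 1 gene lower at 24 h. In cells past the proliferation score they were 0.13 (folding, 24 h) and 0.70 and 0.84 (ATF4). In the remaining cells they were 0.24 (folding, 24 h), -0.53 and -0.15 (sensors) and 0.92 and 1.07 (ATF4), with 4 genes lower at 48 h and 1 higher than at 24 h. Without the deepest 5% of cells the 24 h medians were 0.24 (folding) and 0.84 (ATF4). With a minimum of 10000 UMIs the 48 h medians were -0.037 (folding) and 0.97 (ATF4). With a minimum of 2000 UMIs, 1 gene was lower at 24 h and 1 higher at 48 h than at 24 h, and with at most 10% mitochondrial UMIs 1 was lower at 24 h and the sensors' median was -0.38. With genes of at least 10 UMIs admitted, 2 were lower at 48 h, since Derl3 then counts.

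For goblet-like cells, a cut of 10 per 10000 gave 6 higher and 0 lower genes at 24 h, a cut of 40 gave 2 lower at 48 h, and the top 5% of cells gave 5 higher and a folding median of 0.33 at 48 h. The mean over cells gave 0 lower genes in untreated and 2 at 24 h. These counts, and those at other depths, have no share over all genes beside them. At 10000 to 40000 UMIs there were 0 lower genes in untreated, and the values at 24 h (2 higher, 14 lower, folding median -1.18) rest on 1 goblet-like cell. Derl3 gave no ratio in 24 h cells of this depth or in 48 h cells without those past the proliferation score, as its counts were at or under the floor.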
